A study of Mus musculus with 4 samples.

Results

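The mitochondrial enzymes that burn fatty acids were examined as a set of 9 genes: Cpt1a, Cpt2, Slc25a20, Acadm, Acadl, Acads, Acadvl, Hadha and Hadhb. They were chosen by gene symbol, with earlier results on the levels of the same libraries known, so their levels are given as a description and no test is made on them. All 9 were found among the 50600 gene rows of the count tables. The material was mouse primary cells of strain C57BL/6NJ, labelled T-helper 17 (Th17, the CD4 T cells that make interleukin 17), in 4 RNA-seq libraries numbered as biological replicates 1 to 4. The labels put all of them in 1 group with 1 donor record, name no treatment, allele or control group, do not give an age or a sex, and link to a protocol for CD4 T-cell differentiation. In the file headers each alignment is named with hour 0. Nothing given here says that the libraries came from separate animals or cultures, so the p-values below measure only the spread between these 4 libraries, which may be technical.

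Long-chain fatty acids enter the mitochondrion as carnitine esters and are then shortened in a repeating cycle of oxidation, hydration, oxidation and cleavage, which yields acetyl-CoA and electrons for the respiratory chain. CPT1 on the outer membrane sets the pace of entry and is blocked by malonyl-CoA, the building block of fatty acid synthesis. In T cells the pathway is known mainly from quiescent, memory and regulatory cells, whereas activated effector cells rely more on glycolysis and on making lipids.

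Depth and cell identity bear on every level given here. The libraries held 29041979 to 48808978 counted fragments, of which the 9 genes took 16855 to 24778, and the smallest count of any of them in a library was 291, for Cpt2. Levels are in TPM (a length-corrected share of a library's transcripts), which divides each count by the length of the gene's exons and scales the library to a fixed total. The naive or resting CD4 T-cell genes Tcf7 at 3034 ± 375, Cd4 at 969 ± 34.2, Ccr7 at 865 ± 71.4 and Il7r at 803 ± 186 TPM were abundant (mean ± SD, n = 4, as throughout). The Th17 genes Il17a and Il17f were at 4.22 ± 1.53 and 9.83 ± 3.10 TPM, the receptor gene Il23r had 8 counts in all, and 3 of 8 Th17 markers reached 1 TPM in every library. Genes of resting CD4 T cells were thus high and those of the Th17 programme low, which goes against the label. Of tissues rich in the same enzymes, hepatocyte markers summed to 0 to 0.163, muscle markers to 0.395 to 0.581 and adipocyte markers to 0.0258 to 0.365 TPM per library, with 0 of 5 at 1 TPM in each list and the muscle genes Ckm and Myh7 at 0 counts. B-cell markers summed to 2.51 to 3.73 TPM (0 of 5 at 1 TPM) and myeloid markers to 1.55 to 2.73 TPM (1 of 5, Itgam, with Cd14 at 0). In bulk RNA, fewer cells of a type and less RNA per cell cannot be told apart.

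All 9 enzymes reached 1 TPM in every library, a level that 45.6% of 21764 protein-coding genes reached. The rule used these levels, so nothing is read from that count. Their median was 46.5 TPM, against a median of 34.3 TPM over the 9933 protein-coding genes that passed the same level. Mean levels spanned 10.2-fold from Acadvl, at percentile 94.9 of nuclear protein-coding genes, to Cpt2, at percentile 66.5. Acadvl stood clear of Cpt1a, Acadl of Acads and Hadha of Hadhb, whereas the ranges of every other pair of neighbours in the order Acadvl, Cpt1a, Acadl, Acads, Acadm, Hadha, Hadhb, Slc25a20, Cpt2 overlapped.

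**Figure D1:**
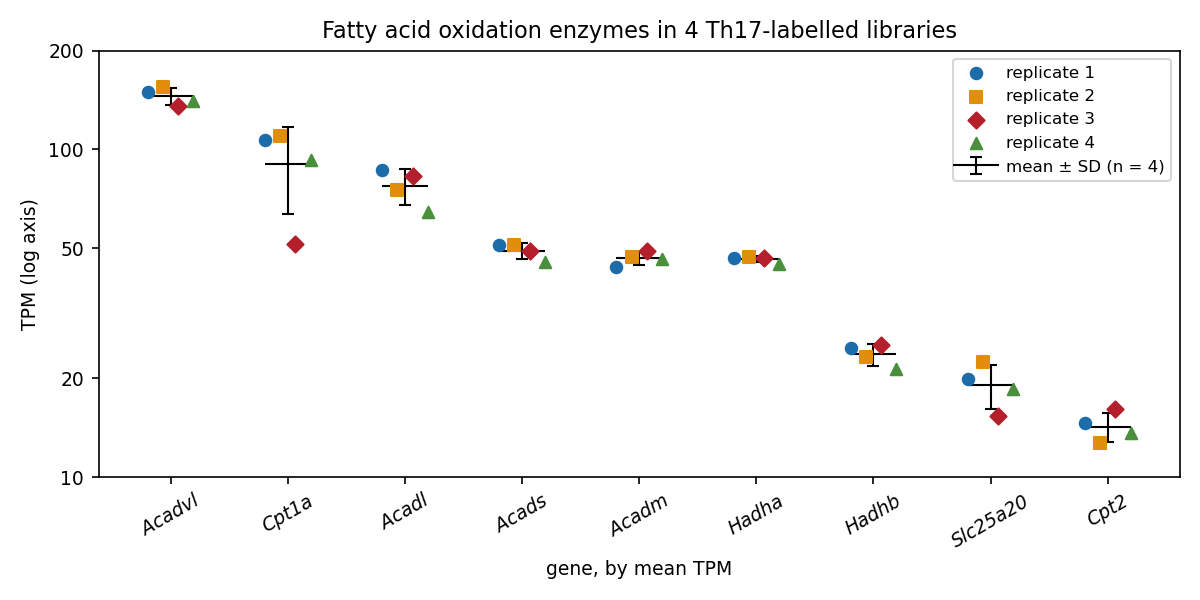
Level of each enzyme gene in TPM on a log axis, with one symbol per library and the mean ± SD over 4 libraries as bars, in order of mean level. The libraries lie close together for Hadha, Acadm and Acads, and the replicate 3 value of Cpt1a, at 51.4 TPM, lies apart from the other libraries at 92.9 to 110 TPM.

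Entry into the mitochondrion was examined first. Cpt1a (ENSMUSG00000024900, chromosome 19, 3323301 to 3385732, plus strand, mm10) encodes the liver-type carnitine palmitoyltransferase that makes the carnitine ester. It was at 107, 110, 51.4 and 92.9 TPM in replicates 1 to 4. Replicate 3 was low, at 0.497 of the mean of the others, which lay close together at 103 ± 9.11 TPM (n = 3). The mean over all libraries was 90.3 ± 27.0 TPM, with a coefficient of variation (CV) of 29.9%. The muscle-type gene Cpt1b was at 0.89, 0.955, 0.522 and 0.413 TPM from 100 counts in all. Cpt1a exceeded it by 6.83 ± 0.48 on the log2(TPM + 0.1) scale in 4 of 4 libraries, or 5.71 with a pseudocount of 1. The brain-type gene Cpt1c, outside the rule for named genes, had 22 counts.

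Slc25a20 (ENSMUSG00000032602, chromosome 9, 108662088 to 108684641, plus strand) encodes the carrier that exchanges acylcarnitine for carnitine across the inner membrane. Its levels were 19.9, 22.4, 15.4 and 18.6 TPM in replicates 1 to 4, with a mean of 19.1 ± 2.92 TPM. Replicate 3 was again the lowest, at 0.757 of the mean of the others. Cpt2 (ENSMUSG00000028607, chromosome 4, 107903981 to 107923610, minus strand) encodes the inner-membrane transferase that returns the acyl group to CoA. Its levels were 14.6, 12.7, 16.1 and 13.6 TPM, with a mean of 14.3 ± 1.46 TPM, and here replicate 3 was the highest.

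Cpt1a exceeded Cpt2 in 4 of 4 libraries, by 2.87, 3.10, 1.67 and 2.76 on the log2 scale in replicates 1 to 4, a mean of 2.60 ± 0.64. The gap was narrowest in replicate 3, where Cpt1a was low and Cpt2 high. Slc25a20 exceeded Cpt2 in 3 of 4 libraries, by a mean of 0.41 ± 0.36 on the log2 scale, little more than its own spread.

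The bases just upstream of Cpt1a are shown because this gene varied most among the enzymes. The sequence is from RefSeq (GRCm38.p6, the assembly also called mm10), chr19:3323051-3323284, plus strand, and ends before the first annotated start; capitals mark GC boxes, the letters GGGCGG or their reverse complement.
Cpt1a upstream: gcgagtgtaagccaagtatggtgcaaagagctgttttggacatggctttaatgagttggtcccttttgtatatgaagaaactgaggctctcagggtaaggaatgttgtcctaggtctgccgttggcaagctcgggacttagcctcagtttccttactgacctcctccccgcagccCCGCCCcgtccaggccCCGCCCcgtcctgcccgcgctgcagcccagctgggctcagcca

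The window searched for each gene ran from 250 bases before to 50 bases after the RefSeq start, and all 9 enzymes had one among 32851 windows. In the Cpt1a window GC boxes lay on the minus strand at -75 to -70, -59 to -54 and 20 to 25, counted from the start, and a CCAAT box at -19 to -15. GGGCGG on either strand occurred in 35.7% of all windows and CCAAT in 37.4%. The core of an interferon response element (2 copies of GAAA in the same direction with 2 bases between, either strand) occurred in 3.44% of all windows and in 0 of the 9. TATAAA occurred in 13.6% of all windows and in 0 of the 9, and AGGTCA repeated in the same direction with 1 base between, the pattern bound by PPAR receptors, in 0.0396% and in 0 of the 9. A match is a description of letters in this window and not a site.

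The first oxidation of each cycle is made by acyl-CoA dehydrogenases that differ in the chain length they prefer. Acadvl (ENSMUSG00000018574, chromosome 11, 70010183 to 70015411, minus strand), for very long chains, was at 150, 155, 136 and 141 TPM. Its mean of 145 ± 8.75 TPM was the highest of the 9, and its range overlapped that of no other member. Acadl (ENSMUSG00000026003, chromosome 1, 66830839 to 66863277, minus strand), for long chains, was at 86.2, 75.1, 83.2 and 64.5 TPM, with a mean of 77.2 ± 9.72 TPM and replicate 4 the lowest. Acadm (ENSMUSG00000062908, chromosome 3, 153922357 to 153944632, minus strand), for medium chains, was at 43.6, 46.9, 49.0 and 46.4 TPM, with a mean of 46.5 ± 2.22 TPM. The libraries differed little for this gene, with replicate 1 the lowest. Acads (ENSMUSG00000029545, chromosome 5, 115110299 to 115119346, minus strand), for short chains, was at 51.0, 51.0, 49.0 and 45.3 TPM, with a mean of 49.1 ± 2.69 TPM. Its range overlapped that of Acadm.

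The dehydrogenases were then compared within each library. Acadvl exceeded Acadm by 1.64 ± 0.14 on the log2 scale in 4 of 4 libraries. Acadl exceeded Acadm by 0.72 ± 0.21 in 4 of 4, but this direction depends on the length used for Acadm and is taken up below. Acads and Acadm differed by 0.08 ± 0.12, with Acads higher in 2 of 4 libraries, which is within the spread.

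The bases upstream of Acadm are shown because its window was the only one among the 9 enzymes with 2 of the motifs searched for factors of mitochondrial genes. The sequence is RefSeq GRCm38.p6, chr3:153944644-153944893, given on the minus strand, 5′ to 3′. Capitals mark the reverse complement of AAGGTCA and the core CGCATGCG of NRF1, a factor of respiratory chain genes. AAGGTCA is the core of the element bound by estrogen-related receptors, and the full element was not searched.
Acadm upstream: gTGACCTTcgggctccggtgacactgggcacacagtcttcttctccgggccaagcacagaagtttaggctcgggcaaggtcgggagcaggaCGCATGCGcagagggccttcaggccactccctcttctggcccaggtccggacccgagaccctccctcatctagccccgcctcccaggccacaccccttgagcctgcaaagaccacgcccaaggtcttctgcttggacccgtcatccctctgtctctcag

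The AAGGTCA match lay at -249 to -243 and the NRF1 core, which reads the same on both strands, at -159 to -152. AAGGTCA on either strand occurred in 4.72% of all windows and CGCATGCG in 1.87%, and among the 9 enzymes each was in the Acadm window alone. Conversely, GGGCGG was in the windows of 7 of the 9, all but Acadm and Acadvl. The GC box of the Hadha window is also counted in the Hadhb window, because these windows overlap. The Acadvl window held none of the motifs searched.

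The remaining steps for long chains are made by the trifunctional protein, whose alpha subunit carries the hydratase and the hydroxyacyl-CoA dehydrogenase and whose beta subunit carries the thiolase. Hadha (ENSMUSG00000025745, chromosome 5, 30118304 to 30155162, minus strand) encodes the alpha subunit. It was at 46.5, 46.9, 46.7 and 44.8 TPM in replicates 1 to 4, with a mean of 46.3 ± 0.962 TPM, and its CV of 2.08% was the lowest of the 9. Hadhb (ENSMUSG00000059447, chromosome 5, 30155248 to 30184593, plus strand) encodes the beta subunit. It was at 24.7, 23.2, 25.3 and 21.4 TPM, with a mean of 23.7 ± 1.77 TPM. Hadha exceeded Hadhb by 0.91, 1.01, 0.88 and 1.07 on the log2 scale, a mean of 0.97 ± 0.09 that is large against its spread.

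Both subunit genes are read outwards from 1 short interval. In the deposited annotation their starts lie 86 bases apart on opposite strands, with 85 bases between the genes. The RefSeq starts, which set the promoter windows, lie 273 bases apart, and the windows overlap by 228 bases. The whole interval of 85 bases is shown because in the deposited annotation it separates the genes for both subunits of 1 enzyme. It is RefSeq GRCm38.p6, chr5:30155163-30155247, plus strand, with Hadha to its left and Hadhb to its right, and capitals mark GC boxes.
Hadha to Hadhb: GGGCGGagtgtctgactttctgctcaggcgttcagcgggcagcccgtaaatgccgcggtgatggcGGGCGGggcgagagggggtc

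G and C made up 69.4% of these 85 bases, and from 49.6% (Acadvl) to 68.0% (Acadl) of the stretches upstream of the other 7 enzyme genes. Those stretches are longer, at 202 to 250 bases, so the shares are not of like lengths. The CV over the libraries was 2.08% for Hadha and 7.50% for Hadhb, and the difference between these spreads was not tested.

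The order of the enzymes depends on which gene length is used. The deposited length is the union of all annotated exons, which includes retained introns in unusual transcripts. For Hadhb it is 6595 bases, 3.22 times the 2048 bases of the longest principal transcript (the APPRIS choice in GENCODE M21), for Slc25a20 4844 against 1783, for Hadha 8730 against 4017 and for Acadm 3913 against 2047. For Acadl, at 2005 against 1916, both nearly coincide. With principal lengths, an alternative chosen after the data were seen, Hadha took the second place at 69.7 ± 1.51 TPM, ahead of Cpt1a at 62.4 ± 18.6 TPM. Their ranges overlapped, and Hadha was above Cpt1a in 2 of 4 libraries. Acadm was then at 61.6 ± 2.97, Acadl at 56.1 ± 7.11, Hadhb at 52.8 ± 4.02, Acads at 41.3 ± 2.29 and Slc25a20 at 35.9 ± 5.49 TPM.

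Acadvl remained the highest at 125 ± 7.49 TPM and Cpt2 the lowest at 9.97 ± 1.03 TPM on that scale. The excess of Hadha over Hadhb shrank to 0.40 ± 0.09 on the log2 scale, still in 4 of 4 libraries. Acadl then lay below Acadm, at -0.14 ± 0.21 with Acadl higher in 1 of 4 libraries, and Acads below it in 4 of 4, at -0.58 ± 0.12. Acadvl over Acadm stayed positive at 1.02 ± 0.14, Cpt1a over Cpt2 at 2.58 ± 0.64, and Slc25a20 over Cpt2 widened to 1.83 ± 0.36. The order of the enzymes between Acadvl and Cpt2 therefore depends on the length chosen, whereas Acadvl at the top and Cpt2 at the bottom held with both lengths.

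**Figure D2:**
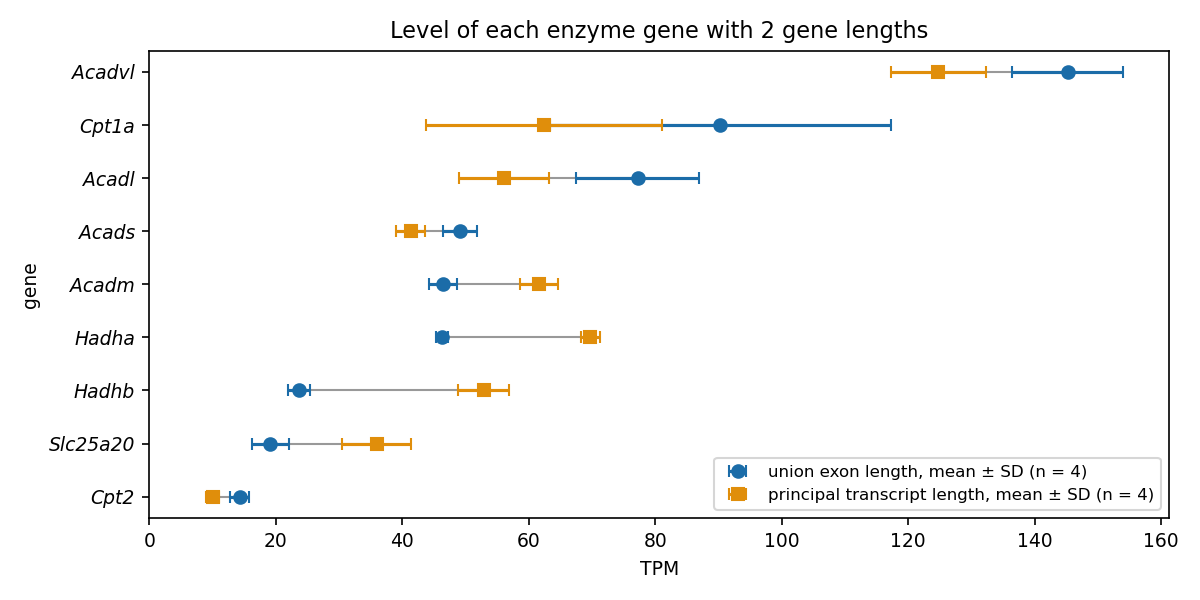
Mean TPM of the 9 enzyme genes computed with the union exon length of the deposited tables and with the principal transcript length, as mean ± SD over 4 libraries. Hadha, Hadhb, Slc25a20 and Acadm are higher with the principal length, Cpt1a, Acadl, Acadvl, Acads and Cpt2 lower. The lengths of Cpt1a (4300 against 4317 bases) and Cpt2 (2391 against 2372) hardly differ, so their lower values come from the rescaled library total.

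Spread between the libraries was tested across all genes, since length cancels when a gene is compared with itself. A gene was called when its spread exceeded the trend of genes of like abundance (edgeR quasi-likelihood dispersion, one-sided F test, Benjamini-Hochberg adjusted p below 0.05), which called 24 of 12464 genes, or 0.193%. Of the 9 enzymes 0 were called by edgeR, 1 (Cpt1a) had an unadjusted p under 0.05, as did 665 of all genes tested (5.34%), and 1 was a dispersion outlier in DESeq2, as were 108 of 12464 genes (0.866%). Cpt1a missed the call narrowly (edgeR adjusted p = 0.0523). Its quasi-likelihood dispersion, which is on the scale of a variance and not of an SD, was 37.4 times the trend. Without replicate 3 its edgeR adjusted p was 0.987. It was called without replicate 1 (edgeR adjusted p = 0.0405), without replicate 4 (2.24e-06) and with no abundance filter (2.62e-17). The other 8 enzymes had edgeR adjusted p-values of 0.942 to 0.999, which does not show that they were equal across libraries.

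Beside that test, the median CV of the 9 was 7.50%, against 5.81% over 7967 protein-coding genes of mean 10 TPM or more, and 3 of the 9 lay below that median. Cpt1a deviated from its own mean by 0.31, 0.33, -0.72 and 0.09 on the log2(CPM + 1) scale in replicates 1 to 4. The other 8 enzymes averaged 0.05, 0.01, 0.03 and -0.09, so their average was not low in replicate 3, although Slc25a20 was at -0.26 there. By library, 3 enzymes were lowest in replicate 3 (Cpt1a, Slc25a20 and Acadvl) and 4 in replicate 4 (Acadl, Acads, Hadha and Hadhb). Acadm was lowest in replicate 1 and Cpt2 in replicate 2. Of 10156 nuclear protein-coding genes of mean 1 TPM or more, 39.9% were lowest in replicate 4 and 22.9% in replicate 3.

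Both libraries also stood apart in other genes. All 12 listed heat shock genes were highest in replicate 4, with a mean deviation of 0.74 there. The share of all genes highest in replicate 4 is not given here. Of the 12, 8 were called for spread, against 0.193% of all genes tested. Hsp90ab1, a cytosolic chaperone gene, was at 3162 TPM in replicate 4 and 1557 to 1846 TPM in the others. All 12 listed interferon-stimulated genes were lowest in replicate 3, against 22.9% of 10156 nuclear protein-coding genes of mean 1 TPM or more. Their mean deviation there was -0.59, and 2 (Oas2 and Ifit1) were called. Zbp1, a nucleic acid sensor gene of that list, was at 164, 168, 122 and 141 TPM in replicates 1 to 4. The part of either programme in the values of the enzymes was not tested.

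**Figure D3:**
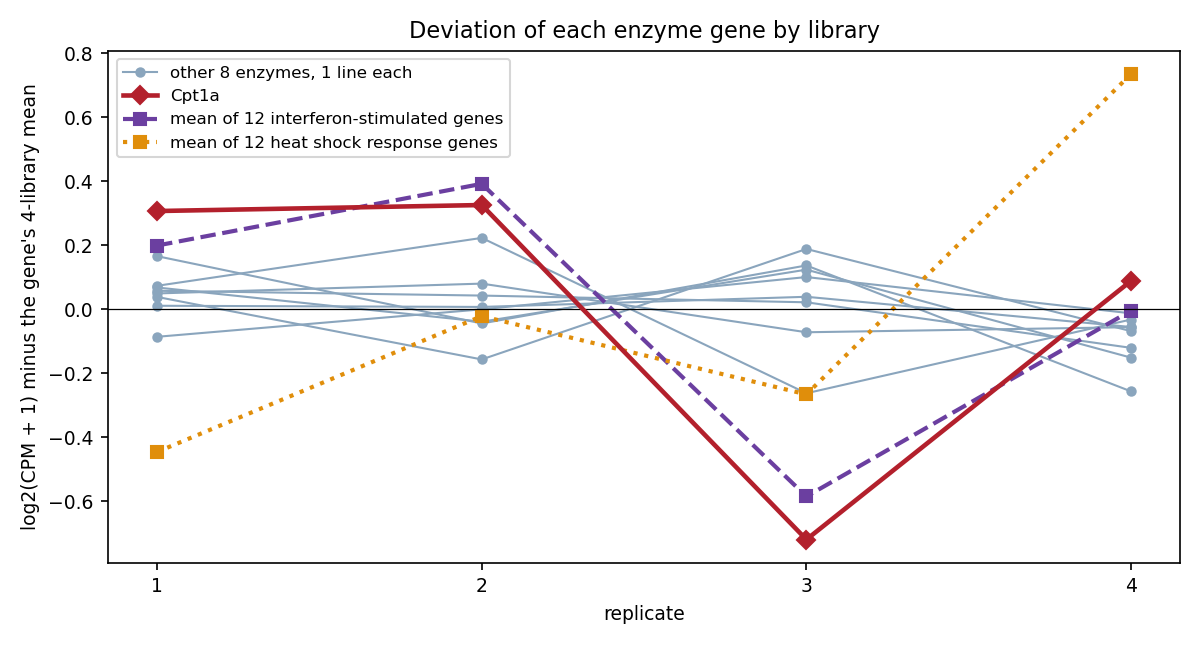
Deviation of each enzyme gene, and mean deviation of the genes of the heat shock and interferon lists, from the mean over the 4 libraries in log2(CPM + 1). Replicates have no order and lines only join values of 1 series; Cpt1a and the interferon list are low in replicate 3 (-0.72 and -0.59), the heat shock list is high in replicate 4 (0.74), and the 8 other enzymes lie between -0.26 and 0.22.

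Genes with the most similar profile over the libraries were then listed by the Euclidean distance between centred log2(CPM + 1) values, over 4 libraries only. Closest to the mean profile of the 9 enzymes, among 7847 genes in no list, were Pigq at a distance of 0.00748, Ngrn at 0.0112 and Irak2 at 0.0117. These are values over 4 points and say nothing of shared function. A search for Cpt1a alone was added after its values were seen. It left out only the 9 enzymes, so genes of the other lists, the interferon list among them, could appear. Among 7958 genes the nearest were Oas3 at 0.140, Isg15 at 0.166, Rtp4 at 0.222, Oasl2 at 0.232 and Usp18 at 0.243, all of which are known as interferon-stimulated genes. Oas3, an antiviral RNA sensor gene, was at 24.7, 29.1, 12.4 and 23.0 TPM in replicates 1 to 4. Isg15, a ubiquitin-like modifier gene, was at 84.3, 91.8, 40.8 and 66.2 TPM. In each case replicate 3 was the lowest library and replicate 2 the highest, as for Cpt1a.

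Of the 10 listed interferon genes of mean 10 TPM or more, 6 were among the 10 genes nearest to Cpt1a and 9 among the nearest 100, with a median rank of 8.5. The genes of the heat shock list and of the other pathway lists gave 0 among the nearest 100. Since 1 library sets these profiles, any gene low in replicate 3 by a like amount would rank near Cpt1a. The listed interferon genes were all lowest in that library, so their ranks restate that pattern and are not a test. The heat shock genes were all highest in replicate 4, so their count of 0 is no test either.

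**Figure D4:**
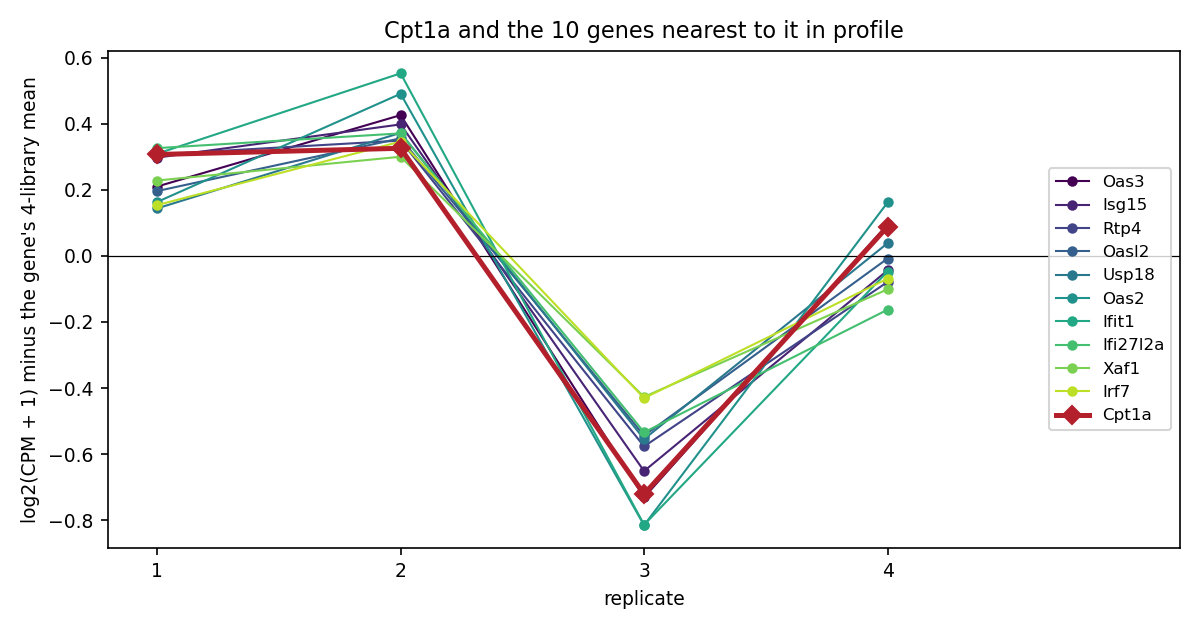
Centred log2(CPM + 1) of Cpt1a and of the genes nearest to it in each of the 4 libraries; replicates have no order and lines only join the values of 1 gene. Cpt1a and its nearest genes share the low value in replicate 3, for example -0.72 for Cpt1a, -0.73 for Oas3 and -0.65 for Isg15.

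Around the 9 enzymes, the other genes of mitochondrial fatty acid oxidation were taken from fixed lists. Of 52 such genes 38 reached 1 TPM in every library, 40 were tested for spread and 0 were called by edgeR, with 3 at an unadjusted p under 0.05 (Slc27a4, Acad10 and Echs1), a level that 5.34% of all genes tested reached. Levels and orders within the lists are given with the union length, and the order of genes can turn with principal lengths. For uptake and activation 10 of 20 reached 1 TPM, with a list median of 1.57 TPM. The acyl-CoA synthetase genes Acsl5 at 153 ± 1.63 and Acsl4 at 49.7 ± 1.82 TPM led it, followed by the acyl-CoA binding protein gene Dbi at 38.1 ± 2.11 and the transporter gene Slc27a4 at 28.8 ± 6.45 TPM. With principal lengths Dbi, at 66.1 TPM, lay above Acsl4, at 35.3 TPM, and below Acsl5, at 78.9 TPM. By contrast, 7 genes had 3 counts or fewer in all, among them the fatty acid translocase gene Cd36 and the binding protein genes Fabp2, Fabp3 and Fabp4. Cd36 had 0 counts, which allows up to 0.0588 to 0.1 TPM per library at 3 counts.

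Carnitine shuttle genes reached 1 TPM in 7 of 10 cases, with a list median of 12.8 TPM. Beside Cpt1a, Slc25a20 and Cpt2 these included the peroxisomal carnitine transferase gene Crot at 32.4 ± 0.721 and the plasma membrane carnitine transporter gene Slc22a5 at 25.6 ± 1.42 TPM. In carnitine synthesis Aldh9a1 was at 72.1 ± 1.46 TPM, whereas Bbox1, whose enzyme makes the last step, had 0 counts. All 12 genes of the acyl-CoA dehydrogenase family reached 1 TPM, with a median of 30.9 TPM. The only one among its 5 highest that was not a member was Ivd, the leucine pathway dehydrogenase, at 58.2 ± 0.826 TPM.

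The hydratase, dehydrogenase and thiolase list reached 1 TPM in 7 of 7 cases, with a median of 46.3 TPM. The thiolase gene Acaa2 at 143 ± 7.74, Hsd17b10 at 114 ± 7.87 and Acat1 at 61.4 ± 4.97 TPM stood above Hadha with the union length, and the short-chain dehydrogenase gene Hadh was at 28.9 ± 1.58 TPM. Echs1, the short-chain hydratase gene, chosen after its values were seen, was at 14.9 ± 2.23 TPM with the union length and 54.9 TPM with the principal length. With that length Hadha, at 69.7 TPM, lay above Acat1, at 47.0 TPM. Enzymes that prepare unsaturated chains gave 4 of 4, with Ech1 at 89.1 ± 2.46, Eci1 at 56.8 ± 4.51, Eci2 at 46.3 ± 4.14 and Decr1 at 9.22 ± 0.577 TPM. The electron transfer flavoprotein genes, which pass the electrons on, gave 3 of 3. Etfa was at 86.1 ± 3.41, Etfdh at 16.8 ± 0.692 and Etfb at 13.7 ± 0.952 TPM.

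The genes that set malonyl-CoA were all measured. Mlycd, whose enzyme degrades malonyl-CoA, was at 29.4, 27.1, 29.2 and 22.4 TPM, a mean of 27.0 ± 3.24 TPM. Acaca and Acacb, for the carboxylases that make it, were at 6.64 ± 0.297 and 1.37 ± 0.228 TPM. Transcript levels do not give the activity of these enzymes.

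**Figure D5:**
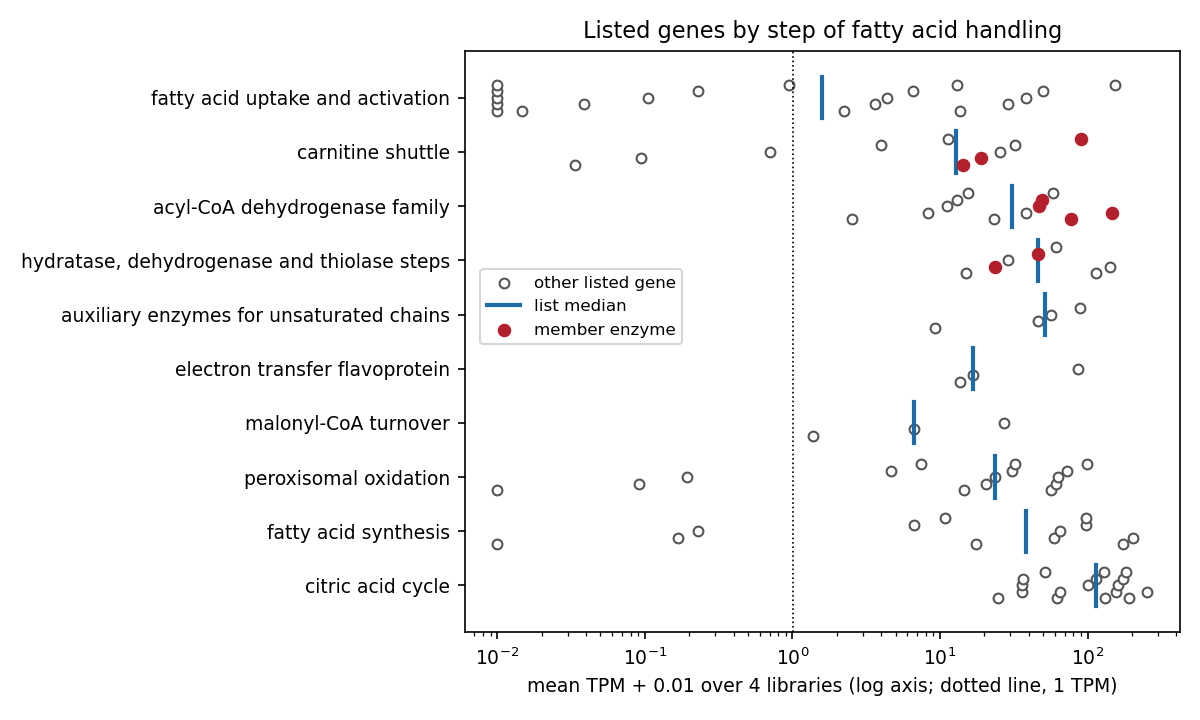
Mean TPM over 4 libraries of each listed gene, plotted as TPM + 0.01 on a log axis, by step of fatty acid handling; filled points are the 9 enzymes, open points other genes, and bars list medians. The enzymes lie between 14.3 and 145 TPM, above the list median in the carnitine shuttle and dehydrogenase rows, and at it (Hadha) or below it (Hadhb) in the hydratase, dehydrogenase and thiolase row, while uptake genes spread from 0 to 153 TPM.

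Regulators of the pathway and its inducible targets were described next. Of 20 regulator genes 13 reached 1 TPM in every library, with a median of 21.2 TPM. They were led by the corepressor gene Ncor1 at 169 ± 6.88, the retinoid X receptor gene Rxrb at 109 ± 4.66, the kinase gene Stk11 at 97.9 ± 5.64, the coactivator gene Pprc1 at 75.7 ± 6.24 and the AMP-activated kinase gene Prkaa1 at 52.8 ± 2.80 TPM. Named after their values were seen, the estrogen-related receptor gene Esrra was at 45.6 ± 3.98 and Ppard at 27.9 ± 4.53 TPM, whereas Ppara had 4 counts, Ppargc1a 21 and Pparg 1 over all libraries.

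Of 10 genes that PPAR receptors are known to induce, 4 reached 1 TPM in every library and 5 had 3 counts or fewer, with Pdk4 and Acot1 at 0 counts. The list median was 0.0484 TPM. The highest was Ucp2, for a mitochondrial carrier that T cells express widely, at 290 ± 18.8 TPM. The lipid droplet coat gene Plin2 was at 4.92, 6.28, 4.95 and 14.6 TPM, high in replicate 4 alone, and was not called (edgeR adjusted p = 0.113). The list left out the 9 enzymes, whether or not PPAR receptors induce them. Cpt1a, a known PPAR target, had a mean of 90.3 TPM. That mean lay between those of Ucp2 and of Acot2, the next gene of the list, at 16.2 ± 1.86 TPM.

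Compared with neighbouring pathways, the 9 enzymes with a median of 46.5 TPM lay below the 17 citric acid cycle genes, all at 1 TPM in every library with a median of 114 TPM. Sdha, a succinate dehydrogenase subunit gene, led that list at 253 ± 5.76 TPM with the union length, whereas with principal lengths the malate dehydrogenase gene Mdh2 led it, at 324 against 235 TPM. Fatty acid synthesis genes had a median of 38.2 TPM with 9 of 12 at 1 TPM, led by Acly at 203 ± 8.15 and Elovl5 at 174 ± 34.2 TPM, with the synthase gene Fasn at 97.9 ± 6.26 TPM. Genes of burning and of making fatty acids were thus both measured in the same libraries, and the medians of these lists were not tested against each other.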

How the data were processed

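RNA-seq of 4 libraries was analysed. The deposited values are whole fragment counts per gene; per the file headers, featureCounts 1.4.6-p4 assigned fragments to GENCODE M13 exons (mm10), paired, both ends mapped, reverse-stranded, with no multi-mapping option on the command line. The assay is titled total RNA-seq and the linked library protocol poly(A)+, per the labels. The aligner is not named in those sources, and text listings of files were not used. GENCODE M21 gave the symbols (gene ID, 50376 of 50600 matched, 224 without a symbol and kept in totals). TPM was computed here from the counts and the deposited union exon length.

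Spread was tested with edgeR 4.0.16 in R 4.3.3 (intercept only, TMM, filterByExpr, robust prior), and DESeq2 1.42.0 gave an alternative. The test was run on simulated data with known changes. Other steps used Python 3.11.15, numpy 2.4.6 and pandas 2.3.3. Log2 ratios between genes used TPM + 0.1, and a count of 0 allowed up to 3 counts, for counting error only. Promoter windows came from RefSeq (GRCm38.p6).

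The members and lists were chosen with earlier results of these data known. Named genes were the members, up to 5 genes of each list by mean TPM, up to 4 with 3 counts or fewer, any called gene, label markers, up to 3 heat shock and interferon genes each, and the 3 genes nearest to the members' profile. The genes nearest to Cpt1a were added after values were seen. In carnitine synthesis 1 listed gene was not analysed here, and some genes that the rule takes in other lists are not reported. Principal transcript length was chosen after the data were seen.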

Additional observations from a re-analysis of the deposited data

How the results depend on the processing

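No paired analysis was possible because the libraries form 1 group. All 9 enzymes reached 1 TPM in every library under every alternative run. The number called for excess spread by edgeR was 0, and 1 (Cpt1a) with no abundance filter or without replicate 1 or 4. The range was 0 to 1 when each library was left out. DESeq2 gave 1 dispersion outlier among the members, whose symbol is not given here. Genes called in all were 24, and 349 with no filter (21421 tested), 10 at a mean CPM of 5, 5 with a prior that was not robust, 6 among nuclear protein-coding genes alone, 108 with DESeq2, and 7 to 86 with 1 library left out. The edgeR adjusted p of Cpt1a ran from 2.62e-17 (no filter) to 0.987 (without replicate 3).

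The median of the members was 52.9 TPM when nuclear protein-coding genes alone set the total and 56.1 with principal lengths. With no length correction the log2 ratios were 1.37 for Hadha to Hadhb, -0.24 for Acadl to Acadm, 1.10 for Acadvl to Acadm, -0.71 for Acads to Acadm, 3.44 for Cpt1a to Cpt2 and 1.42 for Slc25a20 to Cpt2. With principal lengths they were 0.40, -0.14, 1.02, -0.58, 2.58 and 1.83. The reversals of Acadl and Acads against Acadm follow from the length of Acadm. Cpt1a to Cpt1b was 5.71 with a pseudocount of 1. Of the targets induced by PPAR receptors, 2 reached 5 TPM. Mean levels of the members moved by less than 1 SD in 0 of 9 cases with principal lengths. Under other scalings and with 1 library left out they did so in 47 of 54. Leaving out 1 of 4 libraries cannot shift a mean by 1 SD, so those cases were fixed in advance. The 7 of 54 that moved further all came when nuclear protein-coding genes alone set the total. The switch of length also rescaled the library total, which shifts every gene. With 4 libraries and no control, levels cannot be tied to a treatment.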

Other observations

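Peroxisomes shorten very long and branched fatty acids before mitochondria take them over, and 12 of 15 listed genes reached 1 TPM in every library, with a median of 23.5 TPM (union length, as for all levels here). The sterol carrier gene Scp2 was at 99.7 ± 3.69, the thiolase gene Acaa1a at 72.6 ± 4.90, the multifunctional enzyme gene Hsd17b4 at 63.3 ± 4.09 and the phytanic acid hydroxylase gene Phyh at 61.4 ± 3.85 TPM (SD, n = 4). Acox2, for the oxidase of bile acid intermediates, had 0 counts, which allows up to 0.057 to 0.0973 TPM per library at 3 counts.

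Genes that release fatty acids from stored lipid reached 1 TPM in 5 of 6 cases. The lysosomal lipase gene Lipa was at 186 ± 5.97 and the triglyceride lipase gene Pnpla2 at 69.2 ± 4.36 TPM, with its inhibitor gene G0s2 at 18.3 ± 1.25 TPM. Of 4 ketone body genes 3 reached that level. Oxct1, for the enzyme that lets a cell use ketone bodies, was at 121, 122, 125 and 128 TPM in replicates 1 to 4, and Bdh1 was at 48.7 ± 2.56 TPM. The edgeR test called 0 genes for excess spread between libraries among the 12 peroxisomal, 5 lipolysis and 3 ketone body genes tested. Over all genes tested 0.193% were called, so lists of this size say little about stability.

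None of the 33 per-library series tested held a library far enough from the others to pass Dixon's criterion for 4 samples. The members and the gene lists were among these series. The criterion missed even the summed heat shock list, at 6786 TPM in replicate 4 against 3074 to 3962 TPM in the other libraries. It also missed Cpt1a, at 51.4 TPM in replicate 3 against 92.9 to 110 TPM. With so few libraries it can miss gaps of this size, so the result does not show that no library stood apart.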
